A study of Rattus norvegicus with 14 samples.

Results

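The genes described here belong by symbol to families of chromatin proteins, measured in neonatal rat ventricular myocytes. These families hold enzymes, ATPases and partner subunits that write, erase or read marks on chromatin or move nucleosomes. Some members act elsewhere, such as Hdac6 on tubulin, Setd3 on actin, and Sirt3 and Sirt5 in mitochondria. Members were taken by gene symbol from the array's probe table: all genes starting with Hdac, Sirt, Kdm, Kmt, Setd, Smarc, Arid, Dnmt or Ezh, the Kat2 and Kat5 to Kat8 acetyltransferases, the Chd and Tet families, and Ep300, Crebbp, Suz12, Eed and Zmynd8. The rule reads symbols and no values, but it was set with earlier results of these data known. Of the 13184 genes with a probe set naming 1 gene, 90 were members, with 170 probe sets between them. Several probe sets were present for 44 members, of which the brightest on average was taken, and 46 had 1. Kmt5a has its symbol here on a probe set shared with a second gene and was not analysed, and Hdac9, Sirt1, Suz12, Tet1 and Tet2 were not analysed here either.

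The cells were ventricular myocytes of newborn Sprague-Dawley rats, 2 days of age, a primary culture that was pre-plated to reduce non-myocytes and then kept without serum. All groups received either DMSO, the vehicle, or JQ1, which displaces BET bromodomain proteins from acetylated histones. Phenylephrine (PE, 100 µM), an alpha-adrenergic agonist that makes these cells hypertrophy, was the stimulus. The 5 groups were DMSO for 90 min without PE (3 arrays, called unstimulated below), DMSO with PE for 6 h (2 arrays), DMSO with PE for 48 h (3 arrays), and JQ1 with PE for 6 h and for 48 h (3 arrays each). No arm without PE was labelled at 6 h or 48 h, so in the comparisons of PE with the unstimulated group PE and time in culture cannot be told apart. The labels' protocol puts JQ1 or DMSO 6 h before PE while the series' design text puts PE first, and neither names a dose of JQ1. Times given with JQ1 below are times of PE, and the time the cells spent in JQ1 is not settled. Separate cultures behind the arrays of a group are not stated, so the p-values below measure the spread between arrays, which may be technical.

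Histone acetyltransferases open chromatin and create the acetyl-lysines that bromodomain proteins bind, and histone deacetylases (HDACs) and sirtuins remove them. Lysine methyltransferases and demethylases set the methyl marks of promoters, enhancers and silenced genes, and Polycomb repressive complex 2 writes the mark of developmental silencing. The SWI/SNF, ISWI and CHD remodellers use ATP to slide or evict nucleosomes. In cardiac muscle, class IIa HDACs hold the MEF2 factors in check until hypertrophic kinases export them from the nucleus, and cardiac forms of SWI/SNF take part in heart development.

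Values are log2 expression per probe set, so a difference of 1 is a doubling, and a value says nothing of one gene against another. Every fold change is on the log2 scale, ± is its standard error, and a gene was called at an adjusted p below 0.05 (limma, Benjamini-Hochberg over all 13184 genes). Array medians ran from 7.28 to 7.43 and correlations within a group from 0.9976 to 0.9986. A member is called dim in a group where its group mean was under 6.23, the 30th percentile of gene means. A marker is called dim where its mean over all arrays was under that limit. None of 11 cardiomyocyte markers was dim, and their summed level lay between 17.23 and 17.43 in every group. Single cardiomyocyte markers moved: 1 rose and 5 fell with JQ1 at 6 h, and 4 rose and 6 fell with JQ1 at 48 h, where Tnni3, cardiac troponin I, stood at -1.55, Myl3, a myosin light chain, at -0.97, and Mybpc3, myosin-binding protein C, at 0.65, all called. With PE 1 rose and 4 fell at 6 h and 2 rose and 4 fell at 48 h. Of all genes 25.5% rose and 28.8% fell with JQ1 at 6 h, and 30% and 29.6% at 48 h. With PE the shares of all genes were 18.3% and 18.9% at 6 h and 21.4% and 22.6% at 48 h. All 11 fibroblast markers were also above that limit. Their summed level ran from 15.97 to 16.01 unstimulated, 15.91 to 15.92 and 15.74 to 15.76 with PE for 6 h and 48 h, and 15.75 to 15.76 and 15.09 to 15.14 with JQ1. With JQ1 at 48 h 10 of the 11 fibroblast markers fell (median -1.32), against 29.6% of all genes. The 15 markers of proliferating cells ran from 13.37 to 13.39 unstimulated, 13.32 to 13.33 at PE 6 h and 14.29 to 14.32 at PE 48 h, and with JQ1 from 13.24 to 13.28 and 13.18 to 13.21. Smooth muscle and pericyte markers (1 of 7 dim, Rgs5) ran from 13.60 to 13.83 with DMSO and from 13.19 to 13.32 with JQ1 at 48 h. Macrophage markers (4 of 8 dim, Ptprc, Csf1r, Tyrobp and Aif1) ran from 10.12 to 10.66 with DMSO and from 9.48 to 9.62 with JQ1 at 48 h. Of the 7 endothelial markers 4 were dim (Pecam1, Tie1, Vwf and Emcn). The part of these cells in the members' differences was not tested, and in such bulk RNA fewer cells of a type and less RNA per cell cannot be told apart.

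In vehicle cells PE went with lower values of more members than higher ones. At 6 h 13 of the 90 members rose and 25 fell, against 18.3% and 18.9% of all genes. At 48 h 10 rose and 36 fell, against 21.4% and 22.6% of all genes. Raised members made up 14.4% and then 11.1% of the 90, and lowered ones 27.8% and 40.0%. The median member stood at -0.05 and then -0.10, where the median of all genes was 0.01 both times. Both comparisons use the same 3 unstimulated arrays: 19 members were lowered at both times, 7 raised at both and 35 called at neither. The share of all genes with such pairs of calls was not counted. Between PE at 48 h and at 6 h 11 members rose and 20 fell, against 16.3% and 18.4% of all genes. Steps were small: apart from Arid5a at 6 h, which started from a dim unstimulated level, no called member differed from the unstimulated arrays by 1 or more. Without replicate 1 of the PE 6 h pair the count of members lowered at 6 h was 16 and that of members raised from 6 h to 48 h was 6, and without replicate 2 the count lowered from 6 h to 48 h was 11.

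JQ1 was called for a large share of all genes at either time, and the members' counts are set against that share. At 6 h 28 rose and 31 fell (31.1% and 34.4% of the 90), against 25.5% and 28.8% of all genes. At 48 h 41 rose and 19 fell (45.6% and 21.1%), against 30% and 29.6% of all genes. With each array centred on its own median the counts were 42 and 24 at 6 h (34.2% and 22.7% of all genes) and 53 and 14 at 48 h (39.5% and 23.9%). That centring moved the median of all genes from 0.00 to 0.085 at 6 h and from 0.017 to 0.106 at 48 h, since the JQ1 arrays had lower medians, 7.31 and 7.30, than the DMSO groups at 7.39 to 7.40. The JQ1 effect itself was tested for a change with time: it was higher at 48 h than at 6 h for 36 members and lower for 9, against 20.4% and 18.3% of all genes. Counted in pairs of calls, 22 members were raised by JQ1 at both times, 15 lowered at both, 15 raised at 48 h without a call at 6 h, and 12 lowered at 6 h without a call at 48 h. These pairs were not counted over all genes, so they have no share to be set against. Each JQ1 comparison shares its DMSO arrays with the PE comparison of the same time, so their values for a member are set side by side below and not related to each other.

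**Figure D1:**
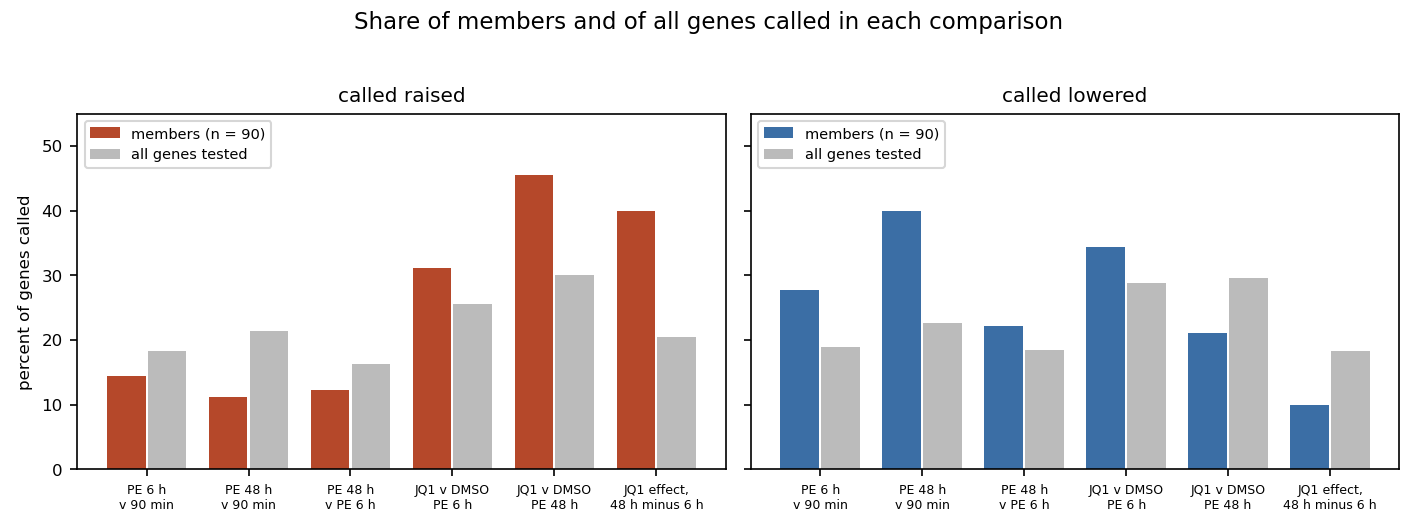
Percent of the 90 members (coloured bars) and of all 13184 genes (grey bars) called raised (left) and lowered (right) in each comparison. Members lowered at PE 48 h make up 40.0% against 22.6% of all genes, and members raised by JQ1 at 48 h 45.6% against 30%.

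Calls differed in how firmly they stood. Each was recomputed under 7 other ways of processing and without each array in turn: 19 of 38 calls at PE 6 h remained under all of them, 29 of 46 at PE 48 h and 11 of 31 between these. For JQ1 43 of 59 calls remained at 6 h and 48 of 60 at 48 h, and 23 of 45 for the difference of its effects. Below, a call is said to hold where it was among these. Arid3a and Kdm4c, dim in every group, were absent from the setting without dim genes. Their calls were therefore recomputed under the other settings only. Values of lost calls are given for single arrays left out, probe sets averaged and centred arrays only. Losses under the other settings are not listed by member. A fit of only the groups compared ended 40 calls, the replicate block 14, repeated quantile normalization 12 and an intensity trend in the prior 5. Among the called members the arrays of the groups compared overlapped for Ezh1 and Hdac2 at PE 48 h.

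**Figure D2:**
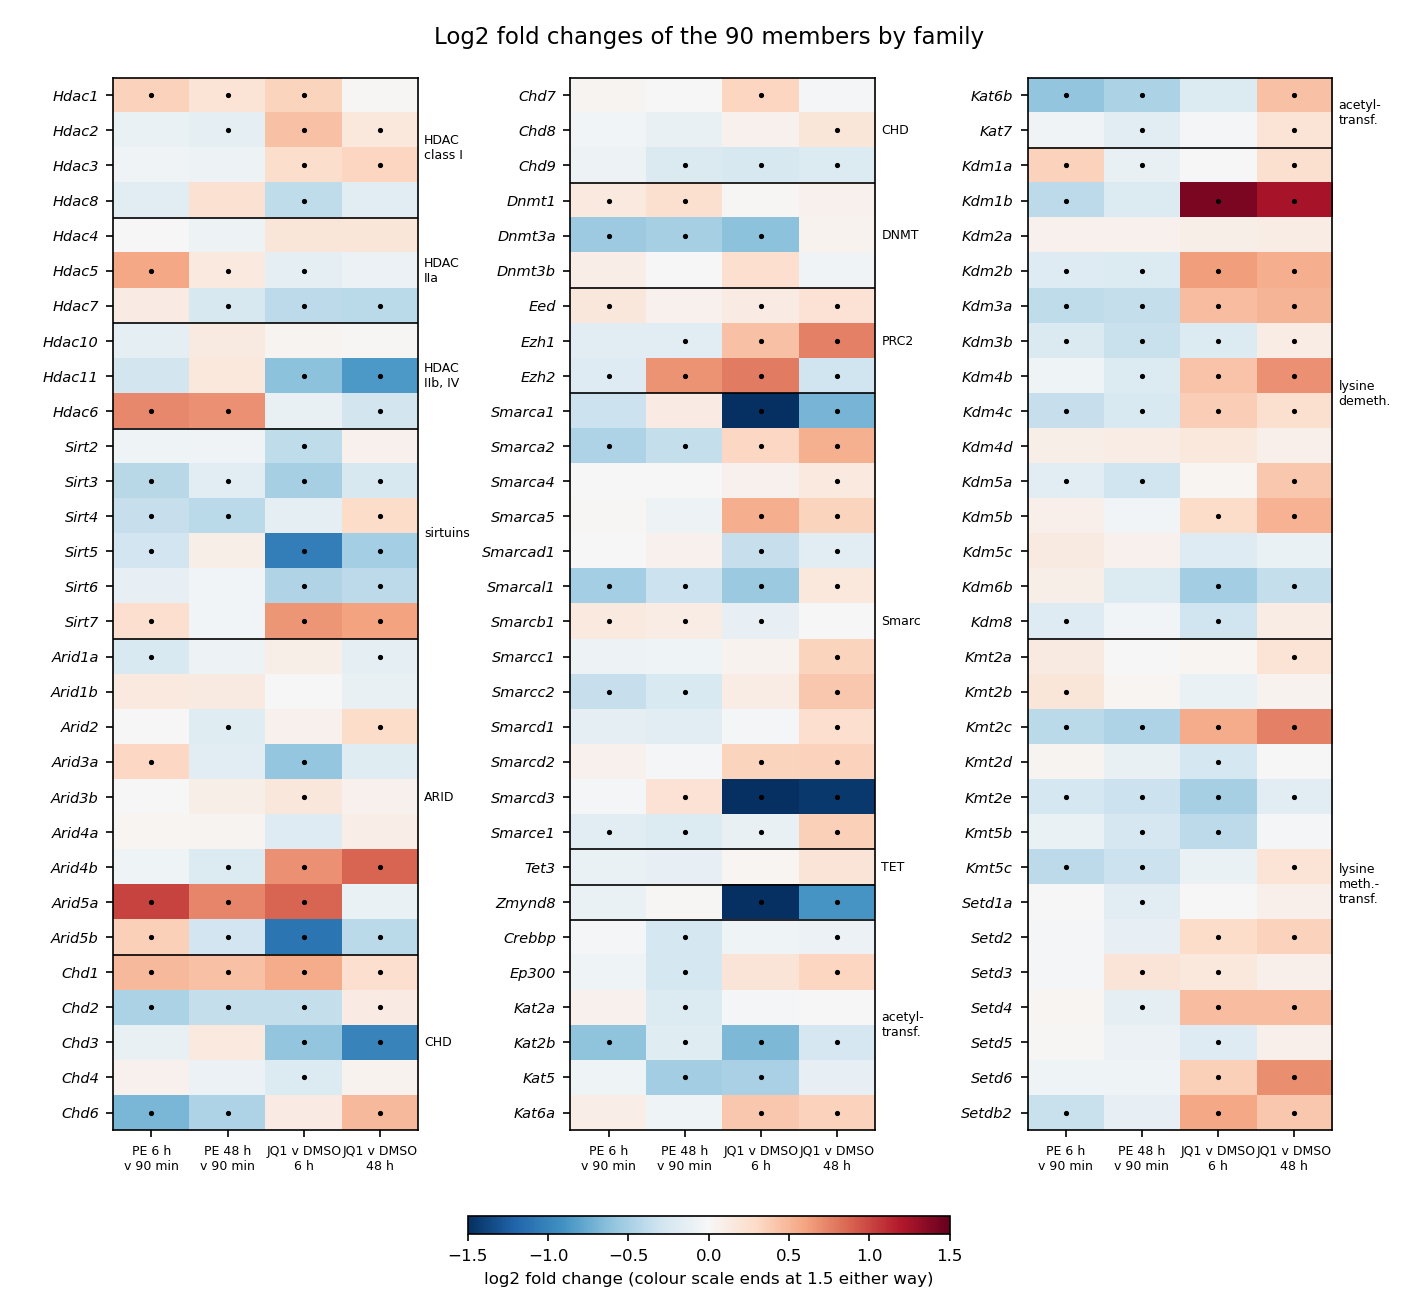
Log2 fold changes of all 90 members, 1 row each, ordered by family with black lines between families; columns are PE 6 h and PE 48 h against unstimulated and JQ1 against DMSO at 6 h and 48 h. Red is higher, blue is lower, and a dot marks an adjusted p below 0.05. The acetyltransferases are called lower at PE 48 h in 7 of 8 rows (22.6% of all genes). The demethylases are called higher with JQ1 at 48 h in 9 of 14 (30% of all genes). Among these the calls of Ep300, Kat2a, Kat7 and Kdm3b did not hold.

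The 3 members lowered most by JQ1 at both times on average, the 2 raised most, and Ezh2, whose JQ1 effects at 6 h and 48 h differed most, are shown by the 250 bases before their transcription start in RefSeq (GRCr8, given 5′ to 3′ on the gene's strand), so that the start of each gene can be seen beside its response. Capitals mark the motifs found on either strand: the TATA box (TATAAA), the GC box (GGGCGG), the CCAAT box (CCAAT), the E-box (CACGTG) and an E2F-type site (TTTCCCGC). Smarcd3 has 2 starts in the table.
Smarcd3, first start, chr4:11440950-11441199, plus strand: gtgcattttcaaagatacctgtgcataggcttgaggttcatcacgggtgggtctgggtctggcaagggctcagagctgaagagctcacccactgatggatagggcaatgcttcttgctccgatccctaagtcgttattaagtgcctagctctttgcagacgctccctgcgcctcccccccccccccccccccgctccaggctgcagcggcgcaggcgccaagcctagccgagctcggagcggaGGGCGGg
Smarcd3, second start, chr4:11463026-11463275, plus strand: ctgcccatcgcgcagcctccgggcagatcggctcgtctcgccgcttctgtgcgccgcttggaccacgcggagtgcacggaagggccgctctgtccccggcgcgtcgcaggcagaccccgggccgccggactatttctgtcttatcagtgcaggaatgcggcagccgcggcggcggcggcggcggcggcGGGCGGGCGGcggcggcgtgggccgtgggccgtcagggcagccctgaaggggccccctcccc
Zmynd8, chr3:175046438-175046687, minus strand: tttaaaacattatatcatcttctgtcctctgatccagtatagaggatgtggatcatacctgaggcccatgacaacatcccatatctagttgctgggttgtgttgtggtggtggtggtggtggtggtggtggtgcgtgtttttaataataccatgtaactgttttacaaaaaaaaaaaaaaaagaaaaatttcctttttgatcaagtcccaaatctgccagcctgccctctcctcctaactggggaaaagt
Smarca1, chrX:131944283-131944532, minus strand: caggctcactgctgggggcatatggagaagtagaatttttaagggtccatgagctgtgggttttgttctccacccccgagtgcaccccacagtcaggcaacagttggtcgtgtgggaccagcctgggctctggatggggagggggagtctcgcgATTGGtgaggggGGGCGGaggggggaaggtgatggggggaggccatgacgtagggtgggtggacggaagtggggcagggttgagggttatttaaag
Kdm1b, chr17:17850069-17850318, minus strand: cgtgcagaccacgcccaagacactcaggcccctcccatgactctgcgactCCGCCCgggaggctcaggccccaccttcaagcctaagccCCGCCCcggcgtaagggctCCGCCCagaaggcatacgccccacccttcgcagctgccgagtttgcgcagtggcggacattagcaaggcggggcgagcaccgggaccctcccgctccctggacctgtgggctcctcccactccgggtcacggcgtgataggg
Arid4b, chr17:55958383-55958632, minus strand: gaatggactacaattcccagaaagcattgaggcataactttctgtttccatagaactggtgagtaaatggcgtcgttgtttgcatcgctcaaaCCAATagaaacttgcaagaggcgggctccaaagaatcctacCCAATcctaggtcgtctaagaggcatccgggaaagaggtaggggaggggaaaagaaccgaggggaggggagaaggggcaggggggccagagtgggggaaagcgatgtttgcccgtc
Ezh2, chr4:77687184-77687433, minus strand: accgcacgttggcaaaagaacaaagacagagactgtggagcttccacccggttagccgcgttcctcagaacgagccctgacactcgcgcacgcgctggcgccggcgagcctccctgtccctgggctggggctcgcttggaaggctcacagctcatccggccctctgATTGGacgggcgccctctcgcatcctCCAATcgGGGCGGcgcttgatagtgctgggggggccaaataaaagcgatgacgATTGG

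None of these 7 windows held a TATA box, an E-box or the E2F-type letters. GC boxes were found in both Smarcd3 windows (1 and 2), Smarca1 (1), Kdm1b (3) and Ezh2 (1), and CCAAT letters in Ezh2 (3), Arid4b (2) and Smarca1 (1). The 2 GC boxes of the second Smarcd3 window share letters. The Zmynd8 window held none of the motifs and was poor in G and C at 40.8%, with 1 CpG, whereas the second Smarcd3 window had 76.4% and 37 CpGs. Of the members 76 had a window and 67 had exactly 1. Among those 67, 64.2% held a GC box, 40.3% CCAAT, 3.0% the TATA box, 7.5% the E-box and 4.5% the E2F-type letters. Over the 10287 measured genes with exactly 1 window the shares were 55.1%, 35.2%, 8.0%, 8.0% and 1.5%, and over all 33469 windows they were 30.5%, 34.0%, 12.9%, 5.6% and 0.8%. The members' windows had a median of 61.6% G and C and 17 CpGs, against 59.2% and 15 over the measured genes.

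Among the deacetylases, the class I enzymes Hdac1, Hdac2 and Hdac3 are nuclear catalytic subunits in the Sin3, NuRD, CoREST and NCoR corepressors, and Hdac8 belongs to the same class. Hdac1 rose with PE at 6 h by 0.35 ± 0.05 (adjusted p = 1.4e-04) and rose further with JQ1 at 6 h by 0.33 ± 0.05 (adjusted p = 9.0e-05), with no call for JQ1 at 48 h (0.02). Hdac2 read 11.91, 11.89 and 11.67 unstimulated, 11.71 and 11.73 at PE 6 h and 11.68, 11.67 and 11.67 at PE 48 h. With JQ1 Hdac2 read 12.22, 12.15 and 12.11 at 6 h and 11.83, 11.83 and 11.84 at 48 h. Every JQ1 array at 6 h lay above every DMSO array of Hdac2, and the rise of 0.44 ± 0.062 held. Hdac3, the NCoR enzyme, rose with JQ1 by 0.26 at 6 h and 0.32 at 48 h. Hdac8 had values of 7.36, 7.51 and 7.15 on the unstimulated arrays, 7.10 and 7.27 with PE for 6 h and 7.52, 7.65 and 7.55 for 48 h. JQ1 arrays of Hdac8 gave 6.93, 6.65 and 6.83 at 6 h and 7.37, 7.51 and 7.36 at 48 h. Hdac8 was lowest with JQ1 at 6 h, where it fell by 0.38 ± 0.1, and the class I enzymes moved in both directions there, 3 raised and 1 lowered (25.5% and 28.8% of all genes). The last of these was not called without replicate 2 (-0.30) of PE 6 h, nor was the rise of Hdac8 from PE 6 h to 48 h (0.39) without replicate 1 (0.31) of PE 6 h. Hdac2 had small calls at PE 48 h (-0.15, not called without any 1 of 11 arrays (-0.11 to -0.16) or with centred arrays (-0.14)) and with JQ1 at 48 h (0.16, not called without replicate 2 (0.16) or 3 (0.16) of PE 48 h or replicate 2 (0.16) or 3 (0.16) of JQ1 at 48 h).

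Class IIa HDACs, the signal-dependent partners of MEF2, did not move as a group. For Hdac5 the unstimulated arrays gave 9.68, 9.62 and 9.64, those at PE 6 h 10.19 and 10.26 and those at PE 48 h 9.77, 9.73 and 9.90. Under JQ1, Hdac5 stood at 10.12, 10.00 and 10.08 at 6 h and 9.73, 9.70 and 9.69 at 48 h. Hdac5 stood clear of the unstimulated arrays at PE 6 h, a rise of 0.58 ± 0.053 (adjusted p = 3.9e-06), and fell by 0.42 ± 0.053 from there to 48 h. Hdac7 read 7.38, 7.48 and 7.54 unstimulated, 7.58 and 7.58 at PE 6 h and 7.23, 7.17 and 7.27 at PE 48 h. With JQ1 Hdac7 read 7.17, 7.15 and 7.26 at 6 h and 6.93, 6.73 and 6.83 at 48 h. Hdac7 fell with PE at 48 h (-0.24 ± 0.057) and with JQ1 at 6 h (-0.39 ± 0.064) and at 48 h (-0.40 ± 0.057), and all of these calls held. Hdac4 had values of 6.88, 6.90 and 6.88 on the unstimulated arrays, 6.90 and 6.90 with PE for 6 h and 6.76, 6.83 and 6.81 for 48 h. JQ1 arrays of Hdac4 gave 7.18, 6.89 and 7.15 at 6 h and 6.90, 7.17 and 6.88 at 48 h. No comparison called Hdac4, and its intervals for JQ1 were -0.02 to 0.37 at 6 h and 0.01 to 0.36 at 48 h. Hdac5 was also called at PE 48 h (0.15), but not without replicate 2 (0.14) or 3 (0.15) of the unstimulated arrays or replicate 3 (0.10) of PE 48 h, and with JQ1 at 6 h (-0.15), but not without replicate 2 (-0.12) of PE 6 h or replicate 2 (-0.12) of JQ1 at 6 h or with probe sets averaged (-0.13) or with centred arrays (-0.07). Of 16 listed genes of class IIa HDAC signalling, such as MEF2 factors, their kinases and binding proteins, 6 rose and 4 fell at PE 6 h, 5 and 4 at PE 48 h, 5 and 4 with JQ1 at 6 h and 7 and 4 with JQ1 at 48 h. Of all genes 18.3% rose and 18.9% fell at PE 6 h, and 21.4% and 22.6% at PE 48 h. With JQ1 25.5% rose and 28.8% fell at 6 h, and 30% and 29.6% at 48 h. Mef2c, one of the MEF2 factors, fell with JQ1 at 6 h (-0.98 ± 0.059, adjusted p = 2.8e-08), and Srf, a factor of muscle and growth-response genes, rose with PE at 6 h (0.67 ± 0.043, adjusted p = 1.6e-07).

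For Hdac6 the unstimulated arrays gave 8.67, 8.53 and 8.71, those at PE 6 h 9.31 and 9.40 and those at PE 48 h 9.35, 9.33 and 9.28. Under JQ1, Hdac6 stood at 9.31, 9.20 and 9.23 at 6 h and 9.13, 9.03 and 8.97 at 48 h. Hdac6, the cytoplasmic deacetylase of tubulin, was higher on every PE array than on any unstimulated one, by 0.72 ± 0.063 at 6 h and 0.68 ± 0.056 at 48 h (adjusted p = 7.9e-07), and with JQ1 at 48 h it fell by 0.27 ± 0.056. Hdac11 read 6.21, 6.31 and 6.13 unstimulated, 5.70 and 6.17 at PE 6 h and 6.38, 6.30 and 6.44 at PE 48 h. With JQ1 Hdac11 read 4.91, 5.49 and 5.58 at 6 h and 5.59, 5.67 and 5.26 at 48 h. Hdac11, the class IV enzyme, was dim except at PE 48 h and was lower with JQ1 at 48 h by -0.86 ± 0.17 (adjusted p = 6.3e-04). Its call with JQ1 at 6 h (-0.61) was lost without replicate 2 (-0.37) of PE 6 h and went to -0.40 without replicate 1 of JQ1 at 6 h. Hdac10, dim at 6 h, was called in one comparison, PE at 48 h against 6 h (0.28), and lost that call without replicate 1 (0.25) of PE 48 h or replicate 2 (0.22) of PE 6 h or with probe sets averaged (0.10).

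Sirtuins are NAD-dependent deacylases of mitochondria, cytosol and nucleus. Sirt5 had values of 10.87, 10.91 and 10.87 on the unstimulated arrays, 10.61 and 10.58 with PE for 6 h and 10.97, 10.97 and 10.97 for 48 h. JQ1 arrays of Sirt5 gave 9.60, 9.50 and 9.55 at 6 h and 10.40, 10.49 and 10.49 at 48 h. Sirt5, the mitochondrial desuccinylase, fell by 1.04 ± 0.042 with JQ1 at PE 6 h (2.06-fold, adjusted p = 9.2e-10) and fell by 0.51 ± 0.037 at PE 48 h, and the effect shrank between the times by 0.54. For Sirt3 the unstimulated arrays gave 8.51, 8.56 and 8.51, those at PE 6 h 8.01 and 8.19 and those at PE 48 h 8.44, 8.33 and 8.30. Under JQ1, Sirt3 stood at 7.59, 7.67 and 7.55 at 6 h and 8.12, 8.10 and 8.12 at 48 h. Sirt3, the main mitochondrial deacetylase, was lower at PE 6 h by -0.42 ± 0.059 and with JQ1 at 6 h by -0.50 ± 0.059. Sirt7 read 8.12, 8.15 and 8.21 unstimulated, 8.34 and 8.47 at PE 6 h and 8.21, 8.13 and 8.0 at PE 48 h. With JQ1 Sirt7 read 9.12, 9.07 and 9.01 at 6 h and 8.77, 8.68 and 8.68 at 48 h. Sirt7, the nucleolar sirtuin, rose with JQ1 by 0.66 ± 0.064 and 0.60 ± 0.058, and its JQ1 arrays lay above all 8 DMSO arrays. Sirt6, which deacetylates histone H3 in the nucleus, fell with JQ1 (-0.45 ± 0.058 and -0.39 ± 0.051), and Sirt2, largely cytosolic, fell by 0.38 ± 0.037 at 6 h with a later value of 0.06. In all, 4 of 6 sirtuins fell and 1 rose with JQ1 at 6 h, against 28.8% and 25.5% of all genes. At 48 h 3 fell and 2 rose, against 29.6% and 30% of all genes. Sirt3 had further calls at PE 48 h (-0.17, lost without replicate 2 (-0.15) of the unstimulated arrays or replicate 2 (-0.16) or 3 (-0.14) of PE 48 h), from PE 6 h to 48 h (0.25, lost without replicate 1 (0.16) of PE 6 h) and with JQ1 at 48 h (-0.24, or -0.15 with centred arrays). Its difference of JQ1 effects (0.26) was lost without replicate 2 (0.17) of PE 6 h. Sirt4, dim in 3 groups, fell at PE 48 h (-0.40 ± 0.091, or -0.21 with probe sets averaged), and its rise with JQ1 at 48 h (0.28) was lost without replicate 3 (0.26) of PE 48 h or replicate 3 (0.23) of JQ1 at 48 h. The rise of Sirt7 at PE 6 h (0.25) was lost without replicate 2 (0.19) of PE 6 h.

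Acetyltransferases, singled out here by this count itself, were the family with the largest share lowered by PE at 48 h. Of the 8 members 7 fell at 48 h, against 22.6% of all genes and 40.0% of the 90 members. At 6 h 2 of 8 fell, against 18.9% of all genes, and none rose at either time. The calls of Ep300, Kat2a and Kat7 at PE 48 h did not hold. Kat2b had values of 11.60, 11.57 and 11.61 on the unstimulated arrays, 11.03 and 10.97 with PE for 6 h and 11.43, 11.42 and 11.40 for 48 h. JQ1 arrays of Kat2b gave 10.40, 10.28 and 10.29 at 6 h and 11.17, 11.20 and 11.14 at 48 h. Kat2b, also called PCAF, fell with PE at 6 h (-0.60 ± 0.043, adjusted p = 3.8e-07) and by less at 48 h (-0.18), and the JQ1 arrays at 6 h were lower again by -0.67 ± 0.043 (adjusted p = 4.7e-08). For Kat5 the unstimulated arrays gave 9.32, 9.31 and 9.48, those at PE 6 h 9.26 and 9.34 and those at PE 48 h 8.89, 8.83 and 8.83. Under JQ1, Kat5 stood at 8.84, 8.80 and 8.78 at 6 h and 8.78, 8.70 and 8.71 at 48 h. Kat5, the catalytic subunit of the Tip60 complex, fell with PE at 48 h (-0.52 ± 0.048, adjusted p = 2.3e-06), and with JQ1 its 6 h arrays already overlapped those of PE 48 h, at -0.49 ± 0.054 against DMSO. Kat6b read 8.42, 8.36 and 8.35 unstimulated, 7.63 and 7.94 at PE 6 h and 7.99, 7.80 and 7.92 at PE 48 h. With JQ1 Kat6b read 7.53, 7.64 and 7.56 at 6 h and 8.32, 8.24 and 8.47 at 48 h. Kat6b, the MORF enzyme, was lower on all PE arrays with DMSO, by -0.59 ± 0.09 and -0.48 ± 0.08, and the JQ1 arrays at 48 h were higher than their DMSO arrays by 0.44 ± 0.08. Averaging the probe sets of Kat6b reduced these to -0.30, -0.28 and 0.29, with the calls kept.

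The coactivators CBP and p300, which acetylate enhancer histones, fell with PE at 48 h. Crebbp had values of 9.54, 9.46 and 9.54 on the unstimulated arrays, 9.45 and 9.52 with PE for 6 h and 9.25, 9.28 and 9.24 for 48 h. JQ1 arrays of Crebbp gave 9.44, 9.44 and 9.38 at 6 h and 9.19, 9.17 and 9.14 at 48 h. Crebbp, encoding CBP, fell by 0.26 ± 0.036, and its call of -0.09 with JQ1 at 48 h was lost without any 1 of 8 arrays (-0.08 to -0.10) or with probe sets averaged (-0.02) or with centred arrays (0.00). For Ep300 the unstimulated arrays gave 10.24, 10.10 and 10.15, those at PE 6 h 9.99 and 10.19 and those at PE 48 h 9.94, 9.97 and 9.79. Under JQ1, Ep300 stood at 10.34, 10.22 and 10.29 at 6 h and 10.27, 10.11 and 10.28 at 48 h. Ep300 fell by 0.26 ± 0.069 at PE 48 h and rose by 0.32 ± 0.069 with JQ1 at 48 h. The fall was lost with probe sets averaged (-0.13), and the rise was then 0.17. Kat6a, the MOZ enzyme, rose with JQ1 by 0.34 at 48 h, and its rise of 0.40 at 6 h was lost with probe sets averaged (0.11). Kat7, known as HBO1, rose with JQ1 at 48 h by 0.21, and its -0.17 at PE 48 h was lost without replicate 2 (-0.15) of PE 48 h. Kat2a, the GCN5 enzyme, was called at PE 48 h (-0.21), which was lost without any 1 of 5 arrays (-0.17 to -0.22). Of 22 measured partners of acetyltransferases 2 rose and 10 fell with PE at 48 h (21.4% and 22.6% of all genes), and 11 rose and 4 fell with JQ1 at 48 h (30% and 29.6%). Trrap, the scaffold shared by the Tip60 and GCN5 complexes, rose with JQ1 by 0.82 ± 0.058 and 0.83 ± 0.052, and Jade1, a partner of HBO1, stood at -1.03 ± 0.059 with JQ1 at 6 h (adjusted p = 1.8e-08).

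**Figure D3:**
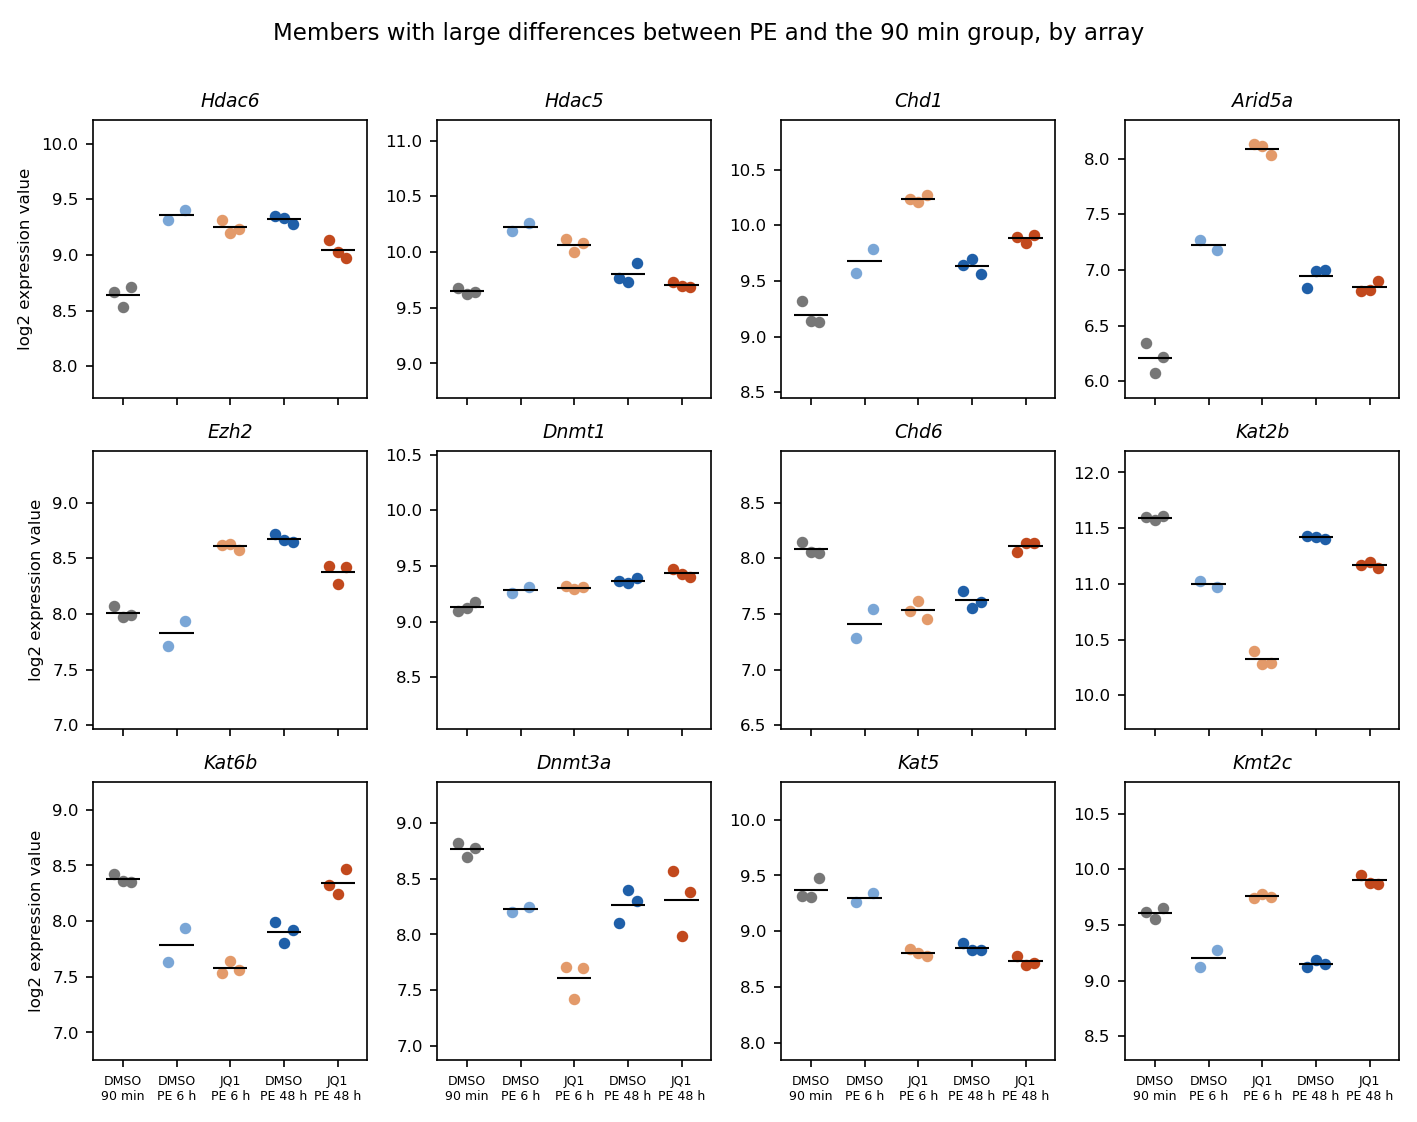
Log2 expression of 12 members on each array (points) with group means (lines), for unstimulated cells, DMSO and JQ1 at PE 6 h, and DMSO and JQ1 at PE 48 h; all vertical axes are in log2 units. Hdac6, Chd1 and Arid5a were higher on all PE arrays than unstimulated, and Chd6, Kat6b and Dnmt3a lower on the DMSO arrays with PE.

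Zmynd8 encodes a reader with a bromodomain that binds acetylated histones. Zmynd8 read 9.19, 8.99 and 8.94 unstimulated, 8.89 and 8.99 at PE 6 h and 9.12, 9.04 and 9.01 at PE 48 h. With JQ1 Zmynd8 read 7.24, 7.37 and 7.35 at 6 h and 8.17, 8.19 and 8.17 at 48 h. The DMSO groups of Zmynd8 differed little, at -0.10 and 0.02 with PE, and every JQ1 array lay below every DMSO array. It fell by 1.62 ± 0.07 with JQ1 at 6 h (3.08-fold, adjusted p = 1.6e-09) and fell by 0.88 ± 0.062 at 48 h (adjusted p = 6.4e-08), a difference between the times of 0.74 ± 0.093 (adjusted p = 4.4e-05). A second probe set gave -1.44 and -0.76, both called.

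Lysine methyltransferases fell more often than they rose with PE, 4 against 1 of 14 at 6 h (18.9% and 18.3% of all genes) and 6 against 1 at 48 h (22.6% and 21.4%). With JQ1 6 rose and 4 fell at 6 h (25.5% and 28.8% of all genes), and 7 rose and 1 fell at 48 h (30% and 29.6%). Kmt2c had values of 9.62, 9.55 and 9.65 on the unstimulated arrays, 9.12 and 9.28 with PE for 6 h and 9.12, 9.19 and 9.15 for 48 h. JQ1 arrays of Kmt2c gave 9.74, 9.78 and 9.75 at 6 h and 9.95, 9.88 and 9.87 at 48 h. Kmt2c, an enhancer methyltransferase of the MLL family, fell with PE (-0.41 ± 0.052 and -0.46 ± 0.046), and the JQ1 arrays lay above all DMSO arrays, by 0.56 ± 0.052 at 6 h and 0.75 ± 0.046 at 48 h (adjusted p = 1.8e-08). For Setd6 the unstimulated arrays gave 8.90, 8.97 and 8.89, those at PE 6 h 8.81 and 8.90 and those at PE 48 h 8.91, 8.78 and 8.85. Under JQ1, Setd6 stood at 9.30, 9.20 and 9.16 at 6 h and 9.50, 9.60 and 9.56 at 48 h. Setd6, a methyltransferase of non-histone proteins, had PE arrays that overlapped the unstimulated ones (-0.06 and -0.07, not called) and rose with JQ1 by 0.36 and then 0.70, a difference of 0.34 ± 0.076. Kmt2e fell with PE at 48 h (-0.32) and with JQ1 at 6 h (-0.50 ± 0.063, adjusted p = 2.1e-05). The pair Kmt5b and Kmt5c, which methylate histone H4, parted: Kmt5b fell at PE 48 h (-0.25) and with JQ1 at 6 h (-0.39), and Kmt5c fell at both PE times (-0.39 and -0.32) and rose with JQ1 at 48 h (0.21). Setd2, which methylates histone H3 over transcribed genes, rose with JQ1 by 0.28 and 0.35, Setd4 by 0.46 and 0.46, and Setdb2 by 0.58 and 0.41.

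For Kmt2c with JQ1 at 6 h averaging probe sets gave 0.30, and for Kmt2d, another enhancer enzyme of that family, it took the fall there from -0.26 to -0.16. Kmt2a, the founding MLL enzyme, rose with JQ1 at 48 h by 0.20, a call lost with probe sets averaged (0.14). The other methyltransferases had calls that rested on few arrays: Kmt2b at PE 6 h (0.18) lost its own without replicate 2 (0.13) of PE 6 h, Setd5 with JQ1 at 6 h (-0.19) without replicate 2 (-0.17) of PE 6 h or with probe sets averaged (-0.18) or with centred arrays (-0.10), and Setd3, which methylates actin, at PE 48 h (0.19) without replicate 3 (0.16) of the unstimulated arrays. Setd1a, a promoter methyltransferase, fell at PE 48 h (-0.17), a call lost without replicate 1 (-0.14) of the unstimulated arrays or replicate 3 (-0.15) of PE 48 h or with probe sets averaged (-0.03) or with centred arrays (-0.16). Setdb2 at PE 6 h (-0.33) was lost without replicate 1 (-0.14) of PE 6 h. Of 25 other measured histone methyltransferases and partners 12 rose and 3 fell at PE 6 h (18.3% and 18.9% of all genes) and 13 rose and 7 fell with JQ1 at 6 h (25.5% and 28.8%). Dot1l, which methylates the histone H3 core, rose by 1.27 ± 0.055 at PE 6 h (adjusted p = 6.2e-09) and by 0.75 ± 0.049 at PE 48 h. Smyd2 and Smyd4, of the SET and MYND family, stood at -0.69 ± 0.042 and -0.96 ± 0.044 with JQ1 at 6 h and at -0.96 ± 0.038 and -0.61 ± 0.039 at 48 h, all lowered.

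Of the 14 lysine demethylases 7 fell at each PE time (18.9% and 22.6% of all genes), with 1 raised at 6 h and none at 48 h (18.3% and 21.4%). The falls of Kdm1b, Kdm2b, Kdm5a and Kdm8 at PE 6 h and of Kdm1a, Kdm4b and Kdm4c at PE 48 h did not hold. With JQ1 6 rose and 3 fell at 6 h (25.5% and 28.8% of all genes), and 9 rose and 1 fell at 48 h (30% and 29.6%). Kdm1b read 8.26, 8.24 and 8.18 unstimulated, 7.60 and 8.07 at PE 6 h and 8.11, 8.01 and 7.96 at PE 48 h. With JQ1 Kdm1b read 9.26, 9.28 and 9.20 at 6 h and 9.25, 9.25 and 9.30 at 48 h. Kdm1b, the flavin-dependent demethylase also called LSD2, had the largest rise of any member with JQ1 at both times, 1.41 ± 0.1 at 6 h (2.65-fold, adjusted p = 1.2e-07) and 1.24 ± 0.09 at 48 h (adjusted p = 8.0e-08). Its PE 6 h arrays differed from each other, and the fall at PE 6 h (-0.39) was lost without replicate 1 (-0.15) of PE 6 h and was -0.62 without replicate 2. Kdm1a had values of 10.11, 10.17 and 10.18 on the unstimulated arrays, 10.48 and 10.51 with PE for 6 h and 10.09, 10.01 and 10.02 for 48 h. JQ1 arrays of Kdm1a gave 10.53, 10.50 and 10.49 at 6 h and 10.29, 10.25 and 10.30 at 48 h. Kdm1a, the related LSD1 of the CoREST complex, rose by 0.34 ± 0.039 at PE 6 h, fell by 0.45 ± 0.039 from there to 48 h (adjusted p = 2.5e-06), and at 48 h was higher with JQ1 by 0.24 ± 0.035. For Kdm3a the unstimulated arrays gave 9.31, 9.30 and 9.28, those at PE 6 h 8.85 and 8.99 and those at PE 48 h 8.97, 8.92 and 8.91. Under JQ1, Kdm3a stood at 9.36, 9.45 and 9.31 at 6 h and 9.40, 9.49 and 9.44 at 48 h. Kdm3a, which removes the methyl marks of silent histone H3, fell with PE (-0.38 ± 0.052 and -0.36 ± 0.047) and rose with JQ1 by 0.46 and 0.51, and all 4 calls held. Kdm6b read 8.25, 8.04 and 8.22 unstimulated, 8.25 and 8.28 at PE 6 h and 7.81, 7.93 and 8.16 at PE 48 h. With JQ1 Kdm6b read 7.62, 7.74 and 7.87 at 6 h and 7.63, 7.52 and 7.66 at 48 h. Kdm6b, or JMJD3, which removes the Polycomb mark, fell with JQ1 (-0.52 ± 0.1 and -0.36 ± 0.09), and its PE 48 h arrays, spread from 7.81 to 8.16, gave no call (-0.20).

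Kdm2b, which links CpG islands to Polycomb, rose with JQ1 by 0.63 and 0.55 and fell at PE 48 h (-0.21). Kdm4b rose with JQ1 by 0.68 at 48 h, and its 6 h value of 0.43 was 0.66 with probe sets averaged. Kdm5a, the promoter demethylase JARID1A, fell at PE 48 h (-0.30 ± 0.047) and rose with JQ1 at 48 h by 0.40 ± 0.047, and Kdm5b rose there by 0.52 ± 0.062. Kdm3b fell at both PE times (-0.22 and -0.33) and Kdm8 fell with JQ1 at 6 h (-0.30). Kdm4c, dim in every group, fell with PE (-0.34 and -0.23) and rose with JQ1 (0.37 and 0.24). Kdm2a, Kdm4d and Kdm5c had no call in the PE or JQ1 comparisons. Of these, Kdm4c at PE 48 h was lost without replicate 2 (-0.18) of the unstimulated arrays. Smaller calls at PE 6 h of Kdm2b (-0.19), Kdm5a (-0.16) and Kdm8 (-0.19) were lost, the first without replicate 1 (-0.13) of PE 6 h, the second without replicate 1 (-0.17) or 2 (-0.17) or 3 (-0.15) of the unstimulated arrays or replicate 1 (-0.06) of PE 6 h and the third without replicate 1 (-0.16) of the unstimulated arrays or replicate 1 (-0.09) of PE 6 h. Of 10 other measured demethylases and JmjC proteins 6 rose and 2 fell with JQ1 at 48 h, against 30% and 29.6% of all genes.

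Polycomb repressive complex 2 was represented by its 2 alternative methyltransferases and Eed, a core subunit. Ezh2 had values of 8.07, 7.97 and 7.99 on the unstimulated arrays, 7.71 and 7.94 with PE for 6 h and 8.72, 8.66 and 8.65 for 48 h. JQ1 arrays of Ezh2 gave 8.62, 8.63 and 8.57 at 6 h and 8.43, 8.27 and 8.42 at 48 h. In Ezh2 the JQ1 arrays at 6 h lay above all unstimulated and PE 6 h arrays, and at 48 h the JQ1 arrays lay below those of DMSO. Ezh2 rose by 0.67 ± 0.059 at PE 48 h (adjusted p = 1.7e-06) and by 0.78 ± 0.066 with JQ1 at 6 h (adjusted p = 6.2e-07), fell by 0.30 ± 0.059 with JQ1 at 48 h (adjusted p = 6.4e-04), and its JQ1 effect differed between the times by -1.08 ± 0.089 (adjusted p = 1.3e-06). With its probe sets averaged the rise at PE 48 h was 0.39, the difference -0.66, and the fall with JQ1 at 48 h was lost (-0.07). A second probe set well above the dim limit gave 0.63, 0.57, -0.50 and -1.07, all called, and another, dim one gave 0.60 with JQ1 at 48 h. Ezh2 is high in dividing cells. Of the 15 proliferation markers 15 rose at PE 48 h (median 1.12), against 21.4% of all genes. With JQ1 at 6 h 11 fell and 1 rose (median -0.43), against 28.8% and 25.5% of all genes. With JQ1 at 48 h 14 fell (median -1.68), against 29.6% of all genes. The part of these markers in the values of Ezh2 was not tested. The call of Ezh2 at PE 6 h (-0.19) was lost without any 1 of 11 arrays (-0.07 to -0.21) or with probe sets averaged (-0.12).

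For Ezh1 the unstimulated arrays gave 8.55, 8.64 and 8.71, those at PE 6 h 8.38 and 8.55 and those at PE 48 h 8.55, 8.39 and 8.43. Under JQ1, Ezh1 stood at 8.94, 8.90 and 8.88 at 6 h and 9.23, 9.13 and 9.25 at 48 h. Ezh1, the form of resting cells, rose with JQ1 by 0.44 ± 0.068 and 0.75 ± 0.06 (adjusted p = 2.3e-07), its JQ1 arrays lying above all DMSO arrays. Its call at PE 48 h (-0.17) was lost without replicate 2 (-0.17) or 3 (-0.13) of the unstimulated arrays or replicate 2 (-0.14) or 3 (-0.16) of PE 48 h, its JQ1 effect at 6 h was 0.24 with probe sets averaged, and the difference of JQ1 effects (0.30) was lost without replicate 2 (0.21) of PE 6 h. Eed read 9.89, 9.91 and 9.92 unstimulated, 10.06 and 10.08 at PE 6 h and 10.01, 9.91 and 9.98 at PE 48 h. With JQ1 Eed read 10.25, 10.21 and 10.12 at 6 h and 10.17, 10.15 and 10.22 at 48 h. Eed rose with JQ1 at 48 h by 0.22 ± 0.041, and its rise at PE 6 h (0.17) was lost without replicate 2 (0.16) of PE 6 h and that with JQ1 at 6 h (0.12) without any 1 of 11 arrays (0.09 to 0.13). Of 20 other measured Polycomb genes 7 rose and 4 fell at PE 48 h (21.4% and 22.6% of all genes) and 11 rose and 4 fell with JQ1 at 48 h (30% and 29.6%). Rybp, of the ubiquitin-writing complex PRC1, rose with JQ1 by 0.68 ± 0.036 and 0.72 ± 0.032, and Pcgf2, another PRC1 subunit, stood at -1.17 ± 0.084 with JQ1 at 6 h, lowered.

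DNA methylation enzymes moved apart. Dnmt1 had values of 9.10, 9.12 and 9.18 on the unstimulated arrays, 9.26 and 9.31 with PE for 6 h and 9.37, 9.35 and 9.39 for 48 h. JQ1 arrays of Dnmt1 gave 9.32, 9.29 and 9.31 at 6 h and 9.47, 9.43 and 9.40 at 48 h. Dnmt1, which copies methylation after replication, rose at PE 48 h by 0.24 ± 0.035 and had JQ1 values of 0.02 and 0.06. Its partner Uhrf1 stood at 0.85 ± 0.062 at PE 48 h and -1.45 ± 0.062 with JQ1 at 48 h, both called, beside the proliferation markers above, whose part was not tested. For Dnmt3a the unstimulated arrays gave 8.82, 8.70 and 8.78, those at PE 6 h 8.20 and 8.25 and those at PE 48 h 8.10, 8.40 and 8.30. Under JQ1, Dnmt3a stood at 7.71, 7.42 and 7.70 at 6 h and 8.57, 7.99 and 8.38 at 48 h. Dnmt3a, a de novo methyltransferase, fell with PE (-0.54 ± 0.14 and -0.50 ± 0.13) and with JQ1 at 6 h (-0.62 ± 0.14), with the 48 h JQ1 arrays spread from 7.99 to 8.57 around their DMSO group. With its probe sets averaged these falls were -0.30, -0.29 and -0.40, still called, and the first was lost without replicate 1 (-0.51) of PE 6 h. Its difference of JQ1 effects (0.66) was lost without replicate 2 (0.64) of PE 6 h, and the rise of Dnmt1 at PE 6 h (0.15) without replicate 2 (0.12) of PE 6 h. Tet3 read 6.16, 6.16 and 6.33 unstimulated, 6.09 and 6.14 at PE 6 h and 6.09, 6.26 and 5.93 at PE 48 h. With JQ1 Tet3 read 6.11, 6.15 and 6.19 at 6 h and 6.32, 6.17 and 6.35 at 48 h. Tet3, which oxidises methylcytosine, lay at the dim limit with no call, and Dnmt3b was dim in every group with none. Of 8 measured methylation readers and partners 4 rose and 2 fell with JQ1 at 48 h, against 30% and 29.6% of all genes.

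SWI/SNF subunits and the related Smarc ATPases held the member with the largest difference in the set. Smarcd3 had values of 10.52, 10.50 and 10.59 on the unstimulated arrays, 10.49 and 10.55 with PE for 6 h and 10.76, 10.72 and 10.79 for 48 h. JQ1 arrays of Smarcd3 gave 8.73, 8.60 and 8.66 at 6 h and 9.27, 9.38 and 9.27 at 48 h. Smarcd3, or BAF60c, the subunit of the cardiac form of SWI/SNF, was highest at PE 48 h and lowest with JQ1 at 6 h, with every JQ1 array below every DMSO array. It rose by 0.22 ± 0.046 at PE 48 h and with JQ1 fell by 1.86 ± 0.051 at 6 h (3.63-fold, adjusted p = 5.6e-11) and fell by 1.45 ± 0.046 at 48 h (2.73-fold, adjusted p = 4.0e-11), with a difference between the times of 0.41 ± 0.069. The alternative subunits Smarcd1 and Smarcd2 went the other way with JQ1 at 48 h, rising by 0.25 and 0.35.

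For Smarca1 the unstimulated arrays gave 6.67, 6.69 and 6.33, those at PE 6 h 6.08 and 6.41 and those at PE 48 h 6.76, 6.60 and 6.68. Under JQ1, Smarca1 stood at 4.74, 4.99 and 4.31 at 6 h and 5.97, 5.86 and 6.13 at 48 h. Smarca1, the ISWI ATPase SNF2L, fell by 1.56 ± 0.17 with JQ1 at 6 h (adjusted p = 6.3e-06) and fell by 0.70 ± 0.15 at 48 h, and was dim in both JQ1 groups. The difference of 0.87 ± 0.23 was lost without replicate 2 (0.70) of PE 6 h. Its relative Smarca5, SNF2H, rose with JQ1 by 0.55 at 6 h (0.32 with probe sets averaged) and 0.33 at 48 h, so the 2 ISWI ATPases moved in opposite directions. Smarca2 read 9.90, 9.91 and 9.89 unstimulated, 9.34 and 9.55 at PE 6 h and 9.58, 9.51 and 9.53 at PE 48 h. With JQ1 Smarca2 read 9.73, 9.75 and 9.78 at 6 h and 10.08, 10.06 and 10.06 at 48 h. Smarca2, the BRM ATPase of SWI/SNF, fell with PE at 48 h (-0.36 ± 0.047) and rose with JQ1 at 48 h by 0.53 ± 0.047 (adjusted p = 5.9e-07). Smarca4 had values of 10.05, 10.05 and 10.15 on the unstimulated arrays, 10.04 and 10.15 with PE for 6 h and 10.08, 10.09 and 10.07 for 48 h. JQ1 arrays of Smarca4 gave 10.12, 10.24 and 10.14 at 6 h and 10.21, 10.27 and 10.21 at 48 h. Smarca4, its alternative BRG1, had uncalled differences of 0.01 and -0.01 with PE and rose by 0.15 ± 0.045 with JQ1 at 48 h, or 0.24 with centred arrays.

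For Smarcal1 the unstimulated arrays gave 8.28, 8.26 and 8.31, those at PE 6 h 7.79 and 7.75 and those at PE 48 h 8.02, 7.95 and 7.94. Under JQ1, Smarcal1 stood at 7.31, 7.24 and 7.08 at 6 h and 8.06, 8.14 and 8.17 at 48 h. Smarcal1, an annealing helicase of replication forks, fell with PE (-0.51 ± 0.06 and -0.32 ± 0.054) and with JQ1 at 6 h (-0.56 ± 0.06), and its JQ1 effect differed between the times by 0.72 ± 0.081 (adjusted p = 1.8e-05). Core subunits were higher with JQ1 at 48 h: Smarcc1 rose by 0.33, Smarcc2 by 0.40 (0.23 with probe sets averaged) and Smarce1 by 0.36, whereas Smarcb1 was not called (-0.00). Smarce1 fell with PE (-0.17 and -0.20). Smarcad1 fell with JQ1 at 6 h (-0.35 ± 0.055, or -0.19 with probe sets averaged), and its call at 48 h (-0.16) was lost without replicate 1 (-0.11) of PE 48 h or with probe sets averaged (-0.03) or with centred arrays (-0.08). Of the family's 13 members 3 rose and 6 fell with JQ1 at 6 h (25.5% and 28.8% of all genes), and 9 rose and 3 fell at 48 h (30% and 29.6%), while 4 fell at each PE time (18.9% and 22.6%).

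The fall of Smarca2 at PE 6 h (-0.46) was lost with probe sets averaged (-0.25). With JQ1 at 6 h Smarca2 rose by 0.31, or 0.20 without replicate 1 of PE 6 h, Smarcd2 rose by 0.33, a call lost without replicate 1 (0.17) of PE 6 h, and Smarcb1 fell (-0.12), a call lost without replicate 2 (-0.10) of PE 6 h or replicate 2 (-0.10) of JQ1 at 6 h or with centred arrays (-0.04). Smarcc2 at PE 6 h (-0.34) was lost without replicate 1 (-0.21) of PE 6 h. Of 16 other measured SWI/SNF subunits 3 rose and 6 fell with JQ1 at 6 h (25.5% and 28.8% of all genes) and 4 rose and 3 fell at 48 h (30% and 29.6%). Dpf3, a cardiac subunit, fell at PE 6 h (-0.77 ± 0.091, adjusted p = 2.8e-05).

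**Figure D4:**
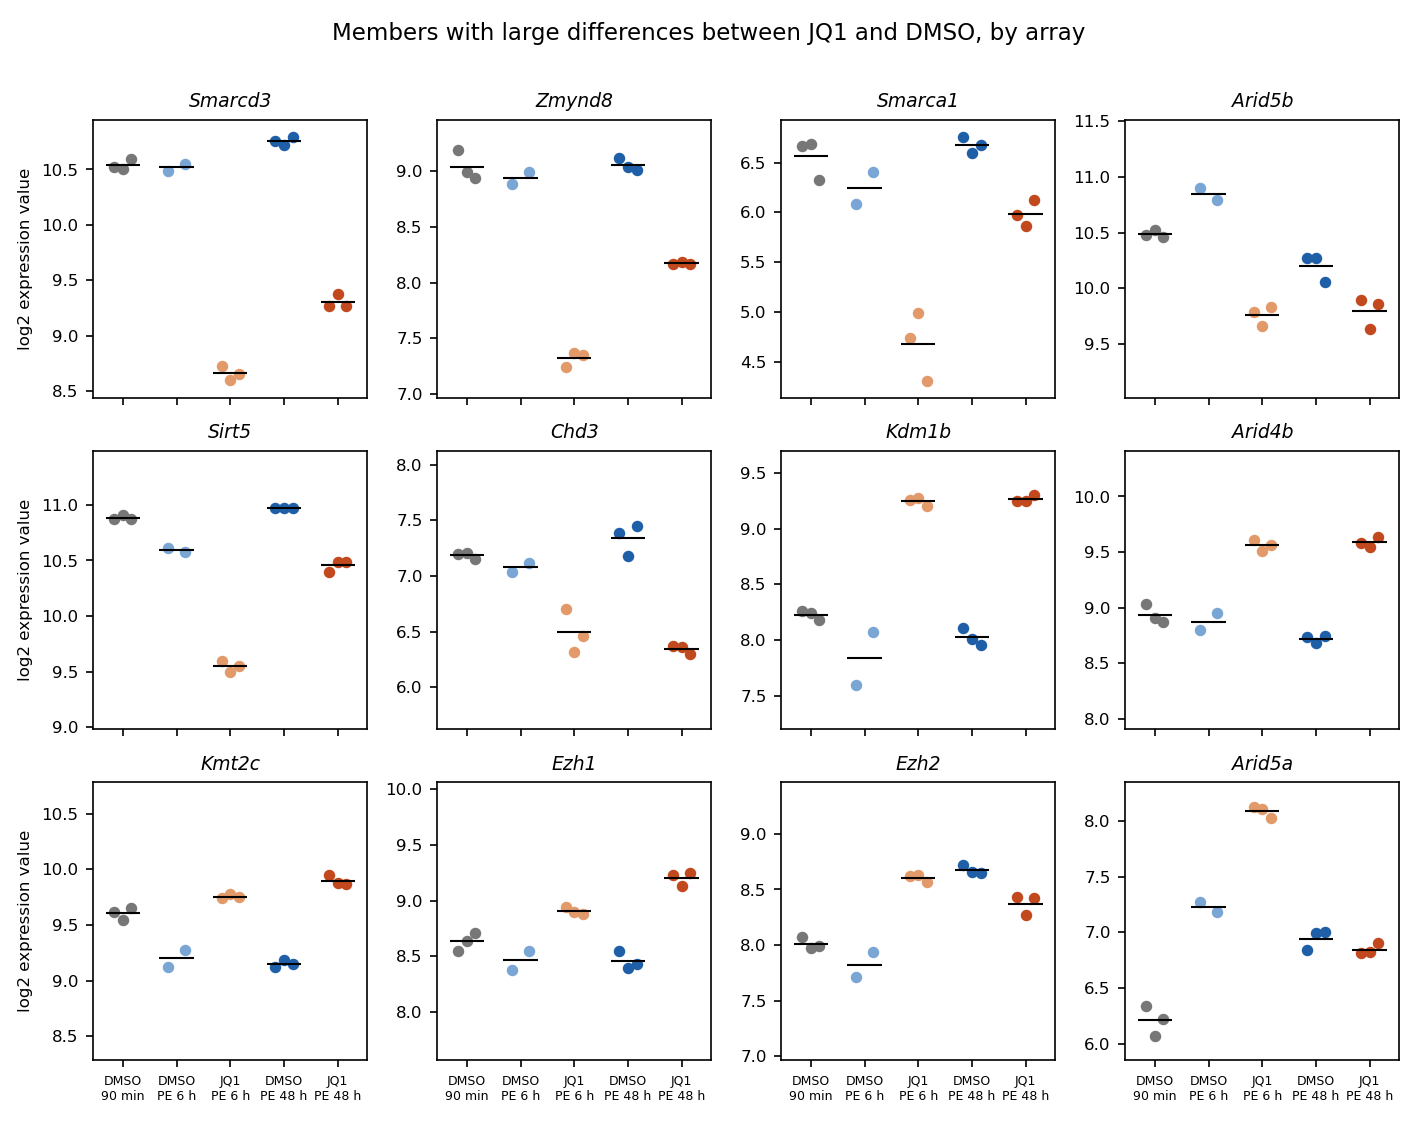
Log2 expression of 12 members on each array (points) with group means (lines), in the same 5 groups; all vertical axes are in log2 units. Smarcd3, Zmynd8 and Chd3 are lower on all 6 JQ1 arrays than on any DMSO array, and Kdm1b, Arid4b, Kmt2c and Ezh1 higher.

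ARID proteins share a DNA-binding domain and belong to different complexes. Arid5a read 6.34, 6.07 and 6.22 unstimulated, 7.27 and 7.18 at PE 6 h and 6.84, 6.99 and 7.0 at PE 48 h. With JQ1 Arid5a read 8.13, 8.11 and 8.03 at 6 h and 6.81, 6.82 and 6.90 at 48 h. Arid5a, which also binds and stabilises cytokine mRNAs, was dim in the unstimulated group (mean 6.21), and from there rose with PE by 1.01 ± 0.074 at 6 h (adjusted p = 4.4e-07) and 0.73 ± 0.066 at 48 h. With JQ1 at 6 h it was higher still by 0.87 ± 0.074 and at 48 h the groups stood at -0.10, a difference of -0.97 ± 0.099 (adjusted p = 8.3e-06). Its second probe set gave 0.66 and 1.12 with PE and 0.17 (not called) and -0.86 (called) with JQ1, and with both averaged the rise with JQ1 at 6 h was 0.52. Arid5b had values of 10.48, 10.52 and 10.46 on the unstimulated arrays, 10.90 and 10.79 with PE for 6 h and 10.27, 10.27 and 10.06 for 48 h. JQ1 arrays of Arid5b gave 9.79, 9.66 and 9.83 at 6 h and 9.89, 9.63 and 9.86 at 48 h. Arid5b, the partner of the demethylase Phf2, went from the highest arrays at PE 6 h to the lowest with JQ1, falling at 6 h (-1.09 ± 0.086, adjusted p = 3.1e-07) and at 48 h (-0.41 ± 0.077). From PE 6 h to 48 h it fell by 0.65 ± 0.086, and its rise at PE 6 h (0.36) was lost without replicate 1 (0.31) of PE 6 h.

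For Arid4b the unstimulated arrays gave 9.03, 8.91 and 8.87, those at PE 6 h 8.80 and 8.95 and those at PE 48 h 8.74, 8.68 and 8.75. Under JQ1, Arid4b stood at 9.61, 9.51 and 9.56 at 6 h and 9.58, 9.55 and 9.64 at 48 h. Arid4b, a Sin3 subunit, rose with JQ1 by 0.68 ± 0.059 and 0.87 ± 0.052 (adjusted p = 1.5e-08), with all 6 JQ1 arrays above all DMSO arrays, and Arid4a had no call. Arid3a read 5.44, 5.25 and 5.34 unstimulated, 5.51 and 5.80 at PE 6 h and 5.05, 5.21 and 5.26 at PE 48 h. With JQ1 Arid3a read 5.04, 5.22 and 4.97 at 6 h and 4.88, 5.03 and 5.08 at 48 h. Arid3a, dim in every group, fell by 0.58 ± 0.1 with JQ1 at 6 h, and its rise at PE 6 h (0.31) was lost without replicate 2 (0.27) or 3 (0.31) of the unstimulated arrays or replicate 2 (0.17) of PE 6 h. Arid1a had values of 10.01, 10.06 and 10.09 on the unstimulated arrays, 9.85 and 9.81 with PE for 6 h and 9.95, 10.03 and 9.97 for 48 h. JQ1 arrays of Arid1a gave 9.85, 9.95 and 9.96 at 6 h and 9.89, 9.81 and 9.83 at 48 h. Arid1a, a subunit that defines the BAF form of SWI/SNF, had called falls at PE 6 h (-0.23) and with JQ1 at 48 h (-0.14), the first lost with probe sets averaged (-0.01) and the second without replicate 2 (-0.11) of PE 48 h or replicate 2 (-0.12) of JQ1 at 48 h or with probe sets averaged (0.04) or with centred arrays (-0.05), and Arid1b was called in none of the PE and JQ1 comparisons. Arid2, of the PBAF form, fell at PE 48 h (-0.18) and rose with JQ1 at 48 h (0.28, or 0.17 with probe sets averaged). Arid3b with JQ1 at 6 h (0.17) was lost without any 1 of 10 arrays (0.10 to 0.18).

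CHD remodellers carry chromodomains that read histone methylation. For Chd1 the unstimulated arrays gave 9.32, 9.14 and 9.13, those at PE 6 h 9.57 and 9.79 and those at PE 48 h 9.64, 9.70 and 9.56. Under JQ1, Chd1 stood at 10.24, 10.21 and 10.27 at 6 h and 9.90, 9.84 and 9.91 at 48 h. Chd1, which follows elongating polymerase, was higher on every PE array than unstimulated, by 0.49 ± 0.071 at 6 h and 0.44 ± 0.063 at 48 h, and higher again with JQ1 by 0.56 and 0.25. Chd6 read 8.15, 8.06 and 8.05 unstimulated, 7.28 and 7.54 at PE 6 h and 7.71, 7.55 and 7.61 at PE 48 h. With JQ1 Chd6 read 7.53, 7.62 and 7.45 at 6 h and 8.06, 8.14 and 8.14 at 48 h. Chd6 had the largest fall of any member at PE 6 h, -0.68 ± 0.077 (adjusted p = 2.1e-05, or -0.44 with probe sets averaged), was lower at PE 48 h by -0.46 ± 0.069, and at 48 h was higher with JQ1 by 0.49 ± 0.069, its arrays there overlapping the unstimulated ones. Chd2 fell with PE (-0.48 and -0.36, or -0.25 and -0.18 with probe sets averaged) and with JQ1 at 6 h (-0.36), and its JQ1 effect rose by 0.47 between the times.

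Chd3 had values of 7.20, 7.21 and 7.15 on the unstimulated arrays, 7.04 and 7.12 with PE for 6 h and 7.39, 7.18 and 7.45 for 48 h. JQ1 arrays of Chd3 gave 6.70, 6.32 and 6.46 at 6 h and 6.37, 6.36 and 6.30 at 48 h. Chd3, a NuRD ATPase, fell with JQ1 at 6 h (-0.59 ± 0.098) and at 48 h (-1.0 ± 0.087, adjusted p = 4.9e-07), the JQ1 arrays lying below all DMSO arrays. The difference of -0.41 was lost without replicate 1 (-0.38) or 3 (-0.36) of PE 48 h or replicate 1 (-0.37) of PE 6 h or replicate 3 (-0.39) of JQ1 at 48 h. For Chd4 the unstimulated arrays gave 9.76, 9.80 and 9.90, those at PE 6 h 9.85 and 9.93 and those at PE 48 h 9.67, 9.72 and 9.79. Under JQ1, Chd4 stood at 9.66, 9.67 and 9.70 at 6 h and 9.80, 9.81 and 9.71 at 48 h. Chd4, the other NuRD ATPase measured, had a call of -0.21 with JQ1 at 6 h that was lost with centred arrays (-0.13) and was -0.42 with probe sets averaged. Chd8 rose with JQ1 at 48 h by 0.18. Chd9 had calls at PE 48 h (-0.22), lost with probe sets averaged (-0.12), and with JQ1 at 6 h (-0.24), lost without replicate 2 (-0.14) of PE 6 h or with centred arrays (-0.15). Chd7 with JQ1 at 6 h (0.32) was lost without replicate 2 (0.29) of PE 6 h. Of 22 measured corepressor partners of NuRD, Sin3, CoREST and NCoR 0 rose and 8 fell at PE 48 h (21.4% and 22.6% of all genes), and 8 rose and 7 fell with JQ1 at 48 h (30% and 29.6%). Mta3, of NuRD, stood at -1.05 ± 0.049 and -0.75 ± 0.044 with JQ1, and Ing1, of Sin3, at 0.83 ± 0.056 and 0.71 ± 0.05, all called.

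The effect of JQ1 at the 2 times used no array in common, and 45 of the 90 members had a difference that was called. Smarcd3, Zmynd8, Arid5b, Sirt5 and Kat2b had smaller falls at 48 h than at 6 h, whereas that of Chd3 was larger at 48 h. The differences of the first 5 were 0.41, 0.74, 0.68, 0.54 and 0.43, and these calls held. Of the members raised at both times, Kdm1b and Arid4b had differences of -0.17 and 0.18 with no call, and intervals of -0.46 to 0.12 and 0.01 to 0.35. Ezh2 was the member called raised at 6 h and lowered at 48 h, the second call being one that was lost with probe sets averaged. In the opposite order, lowered and then raised, came Chd2, Smarcal1, Smarce1 and Kdm3b, whose rises at 48 h of 0.12, 0.16, 0.36 and 0.11 stood against falls of -0.36, -0.56, -0.11 and -0.20. Their differences held, of 0.47, 0.72, 0.47 and 0.31, whereas of the 4 rises that of Smarce1 alone held in all settings. Chd2 at 48 h lost its call without replicate 1 (0.12) or 3 (0.10) of PE 48 h or replicate 1 (0.10) or 2 (0.12) of JQ1 at 48 h or with probe sets averaged (0.06), Kdm3b without any 1 of 5 arrays (0.10 to 0.11), and Smarcal1 without replicate 2 (0.15) or 3 (0.14) of PE 48 h or replicate 2 (0.15) or 3 (0.14) of JQ1 at 48 h. The fall of Kdm3b at 6 h was lost with centred arrays (-0.11) and that of Smarce1 without replicate 1 (-0.11) or 2 (-0.10) of PE 6 h or replicate 1 (-0.10) of JQ1 at 6 h or with probe sets averaged (-0.07) or with centred arrays (-0.02).

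**Figure D5:**
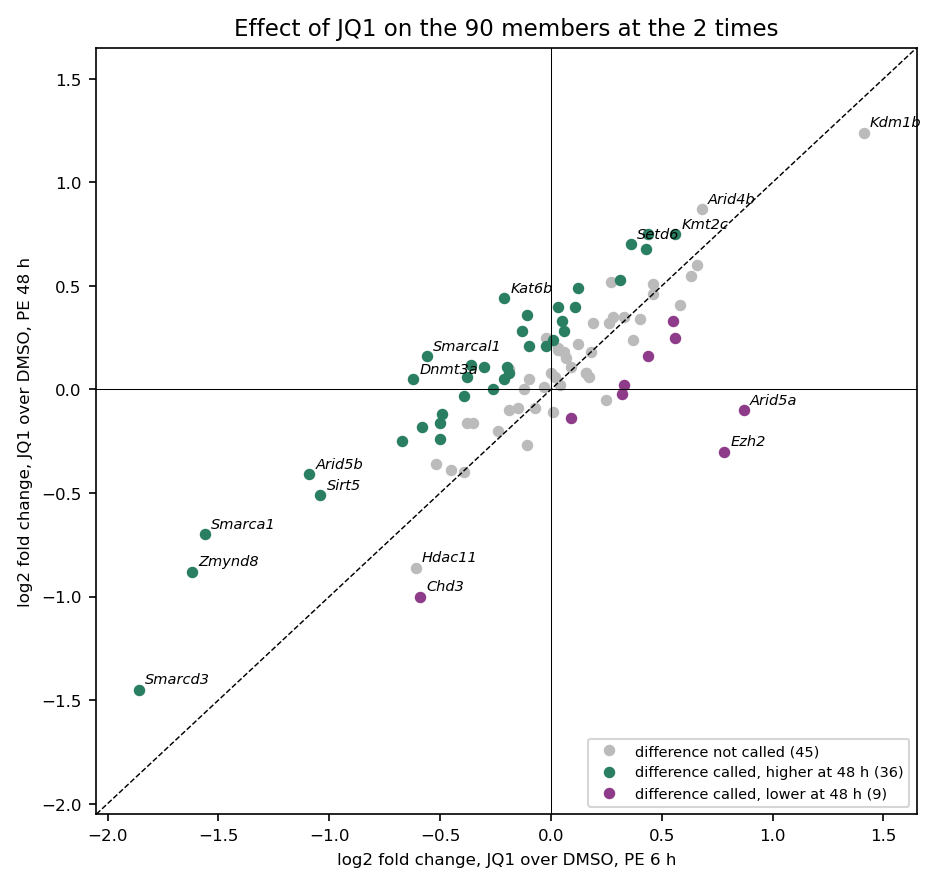
Log2 fold change of JQ1 over DMSO at PE 6 h (horizontal) and at PE 48 h (vertical) for the 90 members, 1 point each; the dashed line marks equal effects and colour marks a called difference. The 36 green members lie above the line and the 9 purple ones below it, with Smarcd3 lowest at both times and Ezh2 and Arid5a far to the right of the line.

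Over all comparisons 9 members were called in none of the 4 contrasts of PE with unstimulated and JQ1 with DMSO: Arid1b, Arid4a, Dnmt3b, Tet3, Hdac4, Hdac10, Kdm2a, Kdm4d and Kdm5c. Group means of a member spanned a median of 0.49, with 44 members spanning at least 0.5 and 13 at least 1, and the median standard deviation within a group was 0.055. Arid3a, Dnmt3b, Kdm4c and Kdm4d were dim in all 5 groups and 6 more in some. Where members had other probe sets, these were called in the same direction in 97 of the called comparisons and were not called in 107 with the same sign and 45 with the opposite one. In 4 they were called the opposite way: Arid5a and Ezh2 once each and Kdm4b in 2 comparisons.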

How the data were processed

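Expression was measured on 14 arrays of 5 groups, grouped by array title. The deposited values are log2 expression per probe set, as their range of 2.71 to 14.70 shows. The authors' summary and normalization steps are not given in the sources used here, and limma is named in the submitters' processing notes without its role.

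Of 20223 probe sets 18510 named 1 gene, 305 several and 1402 none, and 6 controls were left out. Of the 18510, 18461 were updated to current RefSeq symbols through the gene identifier, 1 through its accession, and 48 kept the platform's symbol. The probe set with the highest mean was kept for each of 13184 genes. limma (3.58.1, R 4.3.3) was fitted to all 14 arrays with 1 mean per group and no filter, with two-sided moderated tests, Benjamini-Hochberg adjustment over the 13184 genes and a threshold of 0.05. The difference of JQ1 effects is the interaction term. Tables and figures were made in python 3.11.15. The number of arrays, 2 or 3 a group, limits the precision.

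The members, gene lists and rules were chosen with earlier results of these data known. Values on every array are given for the 5 raised and 5 lowered members with the largest called change whose arrays did not overlap in each PE or JQ1 comparison, the 3 and 3 in PE 48 h against 6 h and in the difference, and 22 measured genes of a panel of 27. Partner genes come from lists, up to 3 per list and comparison by smallest adjusted p. Alternatives were quantile normalization repeated, arrays centred on their medians, the mean of a gene's probe sets, dim genes left out, only the groups compared, an intensity trend in the prior, the replicate number as a block, and each array left out.

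The procedure was tested on simulated data for all 13184 genes. False calls were 7.07% for PE 6 h, 5.79% for PE 48 h and 9.14% between these. For JQ1 they were 8.51% at 6 h and 5.73% at 48 h. Each was above the share that the threshold allows. Of simulated 1.25-fold changes, 54% (JQ1 at 6 h) to 74% (PE 6 h) were recovered. Of 1.5-fold changes, 88% (PE 48 h against 6 h) to 94% (either PE time against unstimulated) were recovered. Small changes can therefore be missed.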

Additional observations from a re-analysis of the deposited data

Results flagged for a closer look

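For 6 members the effect of JQ1 at 48 h differed from that at 6 h by the interaction term of the fit, which is the test of the difference itself. The differences (48 h minus 6 h, log2) were 0.87 for Smarca1, 0.74 for Zmynd8 and 0.72 for Smarcal1, where the later effect was the higher one, and -1.08 for Ezh2, -0.97 for Arid5a and -0.41 for Chd3, where it was the lower one. In Smarca1 (-1.56 and -0.70) and Zmynd8 (-1.62 and -0.88) a fall was smaller at the later time. In Smarcal1 a fall of 6 h (-0.56) stood against a small rise at 48 h (0.16), and in Ezh2 a rise (0.78) against a fall (-0.30). Neither call at 48 h held: that of Smarcal1 was lost without replicate 2 (0.15) or 3 (0.14) of PE 48 h or replicate 2 (0.15) or 3 (0.14) of JQ1 at 48 h, and that of Ezh2 was lost with probe sets averaged (-0.07). Of its other probe sets a dim one was called the other way (0.60) and one above the dim limit the same way (-0.50). The differences of both members held, while the change of sign rests on the calls that were lost. Arid5a rose at 6 h (0.87) and was not called at 48 h (-0.10). Its other probe set, given above, was instead not called at 6 h and called lower at 48 h. Chd3 fell at both times (-0.59 and -1.0). The differences of Smarca1 and Chd3 lost their calls without single arrays: Smarca1 without replicate 2 (0.70) of PE 6 h, and Chd3 without replicate 1 (-0.38) or 3 (-0.36) of PE 48 h or replicate 1 (-0.37) of PE 6 h or replicate 3 (-0.39) of JQ1 at 48 h.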

How the results depend on the processing

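Of the counts of members called, most stayed within 1.5 times under every alternative. Those lowered at PE 6 h (25) ranged from 16 to 26 when each array was left out, with 16 without replicate 1 of PE 6 h. Those raised from PE 6 h to 48 h (11) ranged from 6 to 14, with 6 without replicate 1 of PE 6 h, and were 7 with the probe sets of a gene averaged. Those lowered from PE 6 h to 48 h (20) ranged from 11 to 22, with 11 without replicate 2 of PE 6 h, and were 10 in a fit of only the groups compared. Those with a lower JQ1 effect at 48 h (9) ranged from 6 to 10, and were 5 with probe sets averaged. Averaging probe sets turned Arid1a with JQ1 at 48 h from -0.14 to 0.04 and the difference of JQ1 effects of Crebbp from -0.03 to 0.35 (limma, adjusted p = 0.0143). The cause was not tested.

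With the replicate block the members raised and lowered were 13 and 23 at PE 6 h, 10 and 36 at PE 48 h, 9 and 17 between these, 26 and 34 with JQ1 at 6 h, 40 and 18 with JQ1 at 48 h, and 37 and 8 for the difference. No pairing by number was seen across all groups: deviations of 26 same-numbered pairs correlated at a median of -0.04, with 3 over 0.1. Those of 52 other pairs had a median of 0.02, with 11 over 0.1. Same-numbered arrays of JQ1 at PE 6 h and DMSO at PE 48 h stood at 0.16, 0.08 and 0.11. Those of DMSO at PE 6 h and at PE 48 h stood at -0.27 and -0.23. Deviations within so small a group are tied to each other, so these pairs are not independent. Pairing of some groups only, or under other numbers, was not tested.

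The PE 6 h group has 2 arrays, so each of its comparisons leans on both, and a lone remaining array is assumed to vary like the other groups. Log2 values without detection calls give no lower limit for dim members such as Kdm4d.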
